A study of Homo sapiens with 61 samples.

Results

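The 10 genes studied here encode microtubule-associated proteins (MAPs) and were followed in human neurons: MAP1A, MAP1B, MAP2, MAPT, MAP4, MAP6, DCX, DCLK1, MAP7D2 and CAMSAP2. They were taken as a list of symbols and matched to identifiers through GENCODE release 29. All 10 of them were found, 1 identifier each among 58440, and all 10 passed the filter on low counts in both experiments. RNA was sequenced in 61 libraries of 14 groups. All came from WTC11, an established line of human induced pluripotent stem cells, made into neurons by driving the transcription factor NGN2. Experiment 1 compared wild type cells (WT) with a DLK LZK double KO (double KO), a DLK KO and an LZK KO, each genotype being 1 line with a doxycycline-driven NGN2 cassette, untreated or with vincristine (8 groups of 4 libraries). DLK and LZK are stress kinases of neurons, encoded by MAP3K12 and MAP3K13. Experiment 2 used cells that all, the control included, carried the CRISPR interference machinery and a lentiviral guide RNA: a scrambled Control gRNA, an ATF2 gRNA or a JUN gRNA. Its 6 groups held 5 libraries each, except ATF2 gRNA with vincristine, which held 4 (replicates 2 to 5). Per the series' design text, 5 nM vincristine or its vehicle (called untreated here) was given at day 14 for 16 hours. The labels do not say that replicates came from separate cultures, so p-values measure only the spread between these libraries, which may be technical.

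Microtubules are tubes of tubulin that give axons and dendrites their shape and serve as tracks for transport. MAPs bind along the tube or at its ends, where they stabilise it, bundle it, keep other proteins on or off it, or recruit motors. Tau (MAPT) and MAP2 are known as axonal and dendritic markers of neurons, and vincristine, which binds tubulin and destabilises microtubules, acts on the structure that all of these proteins hold.

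Total counts per library ran from 8.41 M to 14.6 M in experiment 1 and from 38.9 M to 88.4 M in experiment 2. Each targeted gene was lower in the cells labelled for it: MAP3K12 stood at 26.3 ± 2.49 CPM (SD, n = 4) in untreated DLK KO against 91.0 ± 2.23 in untreated WT, MAP3K13 at 31.9 ± 1.96 in LZK KO against 99.1 ± 1.93, ATF2 at 0.526 ± 0.294 (n = 5) in ATF2 gRNA against 129 ± 18.6 in Control gRNA, and JUN at 2.87 ± 0.447 in JUN gRNA against 88.5 ± 6.97. Some were also lower elsewhere: untreated ATF2 gRNA had JUN at 21.0 ± 2.00 CPM, and ATF2 stood at 71.0 ± 5.93 in untreated DLK KO against 141 ± 14.0 in WT. CPM are counts per M (mega) of total counts, scaled with the TMM factors of edgeR. WT vincristine replicate 4 differed from the mean of the other 3 libraries of its group by 0.50 on the log2 scale (root mean square over 10343 genes), against a median of 0.15 over the libraries of experiment 1. LZK KO vincristine replicate 4 followed at 0.34. Many results that use the first, though not all, are given with and without it. A summed list of 9 neuron markers was present in every group (5057 to 10992 CPM per library). TUBB3, a defining neuron marker, was at 36.8 ± 2.32 CPM in untreated WT. Lists of 5 markers each for pluripotent cells, astrocytes and the oligodendrocyte lineage summed to at most 62.2, 8.42 and 50.5 CPM. A list of 6 progenitor and cycling genes, led by NES, was higher in every vincristine library than in every untreated one in 5 of the 7 kinds of cell. Untreated and with vincristine it ran from 734 to 775 and from 923 to 1952 CPM in WT, from 210 to 274 and from 491 to 603 in DLK KO, from 516 to 675 and from 979 to 1173 in LZK KO, from 1310 to 1401 and from 2431 to 2527 in Control gRNA, and from 958 to 1080 and from 1657 to 1763 in JUN gRNA. In double KO (125 to 133 and 122 to 128) and ATF2 gRNA (739 to 816 and 697 to 805) the ranges overlapped. Most of the sum was NES (717 ± 19.8 and 1529 ± 449 CPM in WT), while SOX2 stood at 22.4 and 20.5 in WT. The part of such cells in the MAP values was not tested. In bulk RNA, fewer cells of a type and less RNA per cell cannot be told apart.

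Scaled by exon length, MAP1B was the most abundant of the 10 in every group. In untreated WT it stood at 1059 ± 24.9 CPM per kilobase (kb), followed by MAP2 at 202 ± 5.38 and DCX at 127 ± 2.19. MAP1A (76.6 ± 5.26) and MAP6 (74.8 ± 1.77) came next, and their libraries overlapped. CAMSAP2 (55.8 ± 1.82), MAPT (47.6 ± 1.33), DCLK1 (37.0 ± 0.557), MAP4 (19.9 ± 0.896) and MAP7D2 (9.72 ± 0.491) followed, each with libraries clear of its neighbours. The length is the counting length of the gene (14920 bases for MAPT, 7777 for CAMSAP2). It need not be that of the transcripts present, and the spread between libraries does not cover this. In untreated Control gRNA the order again began with MAP1B (448 ± 28.4 CPM per kb, n = 5), MAP2 (157 ± 14.8) and DCX (130 ± 3.59), but MAP6 (108 ± 2.66) stood above MAP1A (70.0 ± 1.72). MAP4 (33.1 ± 0.850) and CAMSAP2 (30.9 ± 3.72) overlapped there, and MAP7D2 was last at 2.01 ± 0.0893. The 2 experiments were normalised separately, so their levels are set side by side only. In untreated DLK KO, DCX (138 ± 11.3) stood above MAP2 (106 ± 7.26), the reverse of WT, and in untreated double KO, MAP7D2 (28.4 ± 1.24) stood above MAP4 (13.3 ± 0.484).

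**Figure D1:**
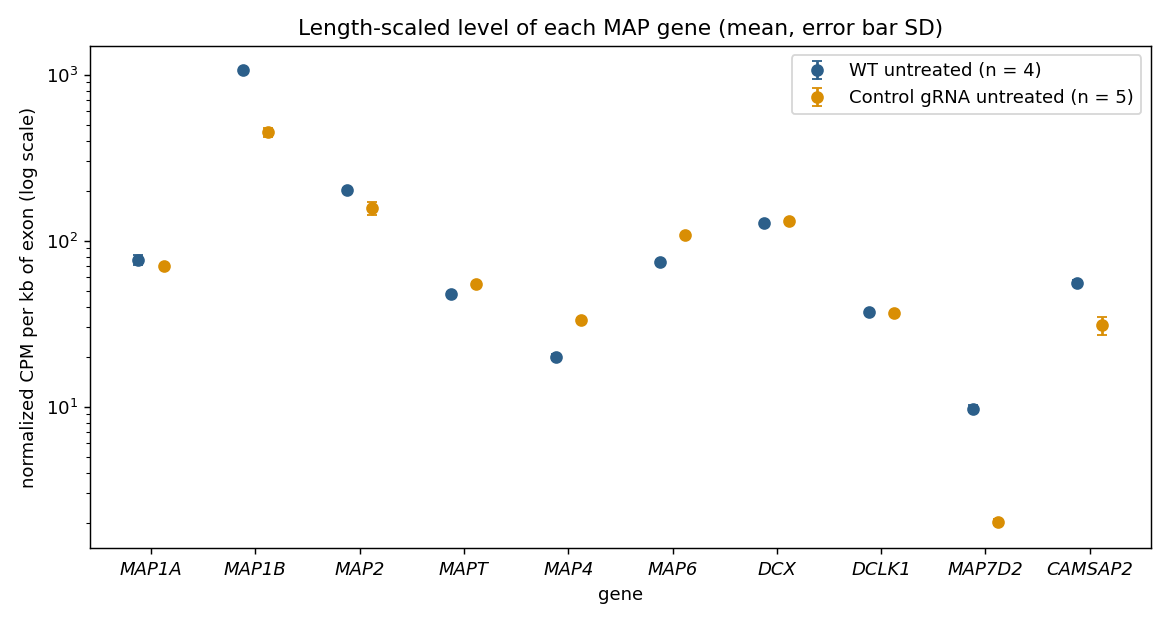
Length-scaled level of each MAP gene (normalized CPM per kb of exon, log scale) in untreated WT (n = 4) and untreated Control gRNA (n = 5); points are means and error bars the SD. MAP1B is highest in both groups, and MAP7D2 lowest.

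Vincristine changed 0 to 6 of the 10 genes, depending on which of the 7 kinds of cell was tested. A gene is called here when its p-value from edgeR's quasi-likelihood test, adjusted over every gene tested in that experiment (Benjamini-Hochberg), is under 0.05. In WT 3 of 10 were called, MAP1A lower and DCX and DCLK1 higher, where 30.2% of the 18235 genes tested were called. In DLK KO 1 was called (MAP1B, higher), against 6.53% of all genes (4.24% higher). In LZK KO the count was 0 of 10, with 3.88% of all genes called. In double KO it was 0 of 10 where 0.0658% of all genes were called (12 genes, with 1096 at an unadjusted p under 0.05). In Control gRNA 3 were called, all lower (MAP1A, MAP6 and MAPT), against 35.3% of 20759 genes (18.1% lower). In ATF2 gRNA 3 were called, all lower (MAP7D2, MAP6 and MAPT), against 6.10% (4.22% lower). In JUN gRNA 6 were called, all lower (MAP7D2, MAP2, MAP6, MAPT, MAP1A and DCX), against 15.9% (8.31% lower). The median log2 fold change of the 10 stayed between -0.14 (JUN gRNA) and 0.08 (LZK KO), where that of all genes lay between -0.02 and 0.03.

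The effect itself differed between cells for several members. The difference from WT was called for 4 of 10 in DLK KO (19.4% of all genes), 3 of them positive (9.95% of all genes), for 0 in LZK KO (12.4%), and for 2 in double KO (19.4%), both negative (10.2%). The difference of double KO from DLK KO was called for 1 (1.14%), a negative one (1.01%). The difference from Control gRNA was called for 6 of 10 in ATF2 gRNA (20.6% of all genes) and 4 in JUN gRNA (15.8%), and that between ATF2 gRNA and JUN gRNA for 0 (2.83%). For LZK KO and for ATF2 gRNA against JUN gRNA, 4688 and 2768 genes had an unadjusted p under 0.05. Comparisons within an experiment share their WT or Control gRNA libraries.

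**Figure D2:**
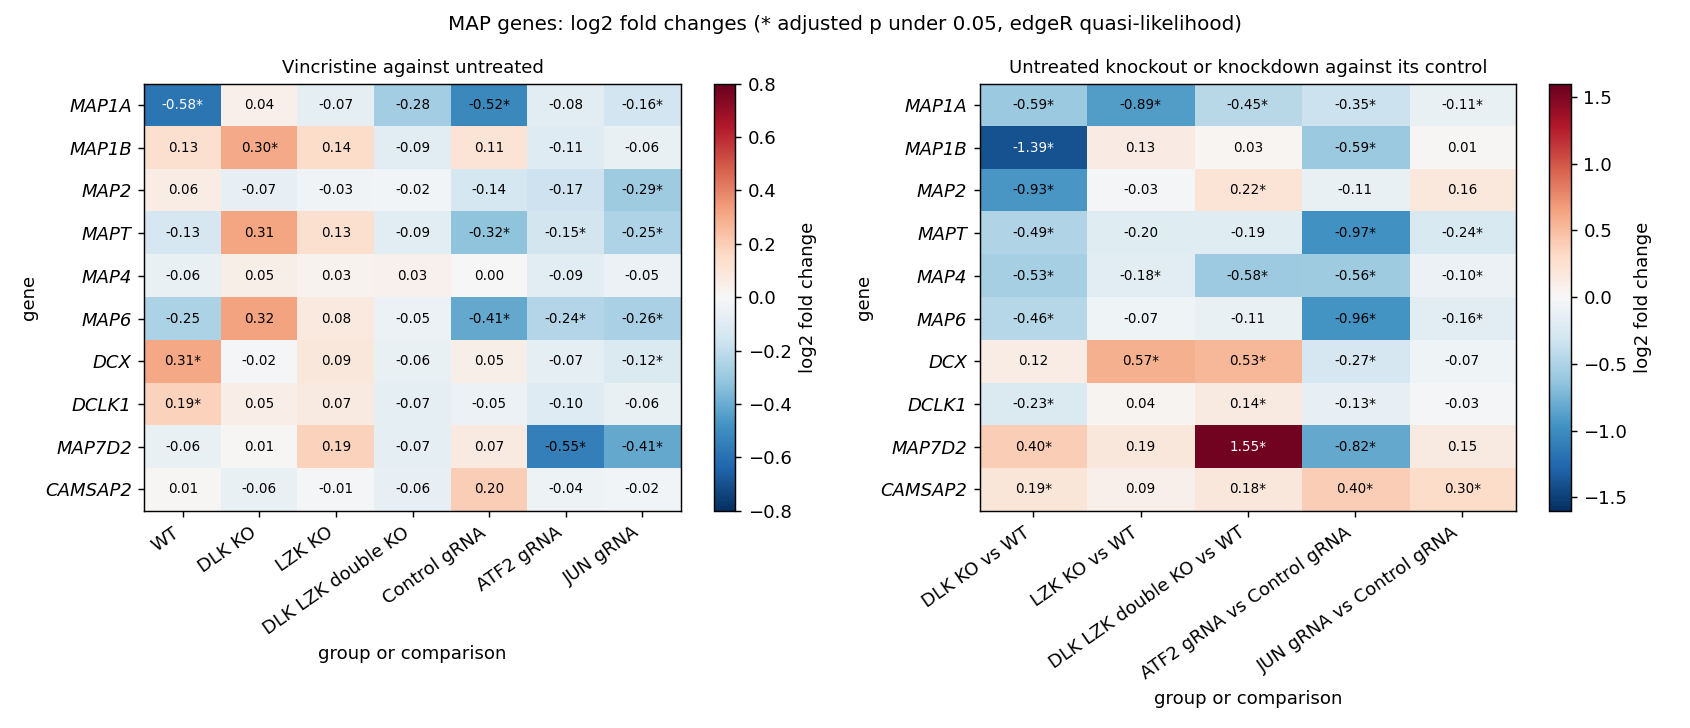
Log2 fold change of each MAP gene with vincristine in the 7 kinds of cell (left) and of each untreated knockout or knockdown against its untreated control (right); red is higher, blue lower, and a star marks an adjusted p under 0.05. MAP1A is bluest in WT (-0.58) and Control gRNA (-0.52) on the left, and MAP1B in DLK KO (-1.39) on the right.

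MAP1A (ENSG00000166963.12, GRCh38 chr15:43510958-43531620, + strand) encodes a large MAP of mature axons and dendrites. It had the largest vincristine change of the 10 in WT. Untreated WT libraries held 760, 803, 801 and 893 CPM in replicates 1 to 4, and vincristine libraries 631, 590, 635 and 317. Every vincristine library lay below every untreated one, with replicate 4 far lower than the others. The log2 fold change was -0.58 ± 0.13 (SE, adjusted p = 0.000931), and -0.40 ± 0.07 without that replicate (adjusted p = 3.84e-05). Control gRNA gave 752, 738, 748, 717 and 766 CPM untreated and 504, 533, 538, 513 and 510 with vincristine. These groups did not overlap, with a log2 fold change of -0.52 ± 0.03 (adjusted p = 6.53e-17).

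In the other cells MAP1A started lower, and its mean change with vincristine was smaller. Among the knockouts, that change differed from the one in WT by the main test in DLK KO only. DLK KO libraries held 498, 542, 537 and 587 CPM untreated and 573, 580, 515 and 555 with vincristine, with overlap (log2 fold change 0.04 ± 0.13). LZK KO held 445, 386, 509 and 420 CPM and 423, 368, 399 and 481, again with overlap (-0.07 ± 0.13). In double KO, 598, 635, 565 and 589 CPM were set against 499, 501, 498 and 474. These did not overlap, but the change of -0.28 ± 0.13 was not called (adjusted p = 0.802). It was called in a fit of its own 8 libraries and with voom quality weights. The effect differed from that in WT by 0.62 ± 0.18 in DLK KO (adjusted p = 0.0172), and by 0.43 ± 0.10 without WT vincristine replicate 4 (adjusted p = 0.00153). The call was lost with no filter and in a fit confined to the compared groups. The difference was 0.51 ± 0.18 in LZK KO (adjusted p = 0.0705), which without that replicate was 0.32 ± 0.10 and called (adjusted p = 0.0239). In double KO it was 0.31 ± 0.18 (adjusted p = 0.264), and 0.12 ± 0.10 without that replicate (adjusted p = 0.404).

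ATF2 gRNA libraries held 587, 551, 608, 598 and 585 CPM of MAP1A untreated and 518, 546, 584 and 563 with vincristine. The groups overlapped and the log2 fold change was -0.08 ± 0.04 (adjusted p = 0.199). In JUN gRNA, MAP1A fell from 680, 713, 690, 625 and 733 CPM to 627, 596, 633, 619 and 613, with overlap (-0.16 ± 0.03, adjusted p = 0.000744). The effect differed from that in Control gRNA by 0.43 ± 0.05 in ATF2 gRNA (adjusted p = 3.55e-09) and by 0.36 ± 0.05 in JUN gRNA (adjusted p = 1.86e-07). Between the 2 guides it differed by 0.07 ± 0.05 (95% interval -0.03 to 0.17, not called).

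Untreated MAP1A was lower in all 3 knockouts and with both guides. The log2 fold change against untreated WT was -0.89 ± 0.13 in LZK KO, -0.59 ± 0.13 in DLK KO and -0.45 ± 0.13 in double KO, each with libraries apart. Against untreated Control gRNA it was -0.35 ± 0.03 in ATF2 gRNA with libraries apart. In JUN gRNA it was -0.11 ± 0.03 with overlap (adjusted p = 0.0239), a call that 5 of 17 alternatives lost: no filter, and without replicate 1 or 5 of untreated Control gRNA or 1 or 4 of untreated JUN gRNA. The summed neuron markers hold none of the 10 genes. They ran from 9413 to 10407 CPM per library in untreated DLK KO and from 10319 to 10681 in untreated double KO. Untreated WT held 8049 to 8601, and untreated LZK KO overlapped it with 7208 to 9071. Most of the sum was NEFM, a neurofilament gene, at 8424 ± 402 CPM in untreated DLK KO, 8534 ± 180 in double KO and 6260 ± 273 in WT. Every other marker on the list had a lower mean in DLK KO than in WT, such as GAP43 (664 and 1008 CPM), SLC17A6 (171 and 299), ELAVL3 (235 and 285) and TUBB3 (26.6 and 36.8). In double KO the other markers went both ways.

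With vincristine the same sum was lower, with no overlap, in WT, Control gRNA and JUN gRNA, where MAP1A was called lower. That was also so in ATF2 gRNA, where MAP1A was not called. In double KO, where the MAP1A libraries were apart, the sum overlapped. It ran from 5524 to 7371 CPM with vincristine in WT, from 7505 to 7766 and from 5057 to 5374 in Control gRNA, from 7311 to 7683 and from 5907 to 6166 in JUN gRNA, and from 7427 to 7609 and from 7048 to 7396 in ATF2 gRNA. With vincristine it ran from 10185 to 10992 in DLK KO, from 9130 to 9378 in LZK KO and from 9755 to 10694 in double KO. NEFM again made up most of the sum. It was at 6260 ± 273 CPM in untreated WT and 4477 ± 847 with vincristine, and at 5253 ± 75.7 and 2895 ± 72.5 in Control gRNA. Of the other markers on the list, some had higher means with vincristine in WT: SNAP25 (101 and 119 CPM), SYN1 (86.5 and 97.7), SLC17A6 (299 and 389) and GAP43 (1008 and 1100). The rest had lower means there: TUBB3 (36.8 and 19.7 CPM), ELAVL4 (202 and 156), ELAVL3 (285 and 242) and RBFOX3 (81.7 and 80.5). The TUBB3 mean was also lower with vincristine in DLK KO (26.6 and 15.2 CPM), LZK KO (37.4 and 22.1) and double KO (43.5 and 20.3). The part of these markers in the MAP1A result was not tested.

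A window upstream of an alternative RefSeq start inside MAP1A is printed because MAP1A moved with vincristine in both control settings. RefSeq promoter windows (GRCh38.p14, 250 bases before to 50 after a start) matched 7 of the 10 genes, in 17 windows. The stretch below lies outside exons of GENCODE 29, and capitals mark the GC box, GGGCGG or its reverse complement, which 44.95% of all 35116 windows hold on either strand.
MAP1A chr15:43517358-43517607 (+ strand): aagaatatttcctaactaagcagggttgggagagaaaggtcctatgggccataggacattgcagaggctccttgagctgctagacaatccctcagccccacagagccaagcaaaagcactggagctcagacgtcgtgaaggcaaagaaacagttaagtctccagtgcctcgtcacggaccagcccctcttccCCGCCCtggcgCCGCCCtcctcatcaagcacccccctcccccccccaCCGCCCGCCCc
The motifs that ATF2 and JUN are known to bind were searched on both strands of all windows: the CRE, TGACGTCA, its core, TGACGT (which every CRE also holds), and the AP-1 site, TGANTCA. No MAP1A window holds any of them. The CRE was found in 0 of the 17 windows and in 1.85% of all windows. The CRE core was found in 1 of the 17 (DCLK1) and 7.98% of all windows, and the AP-1 letters in 2 of the 17 (both DCLK1) and 7.71% of all. A match is a description of the letters only.

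**Figure D3:**
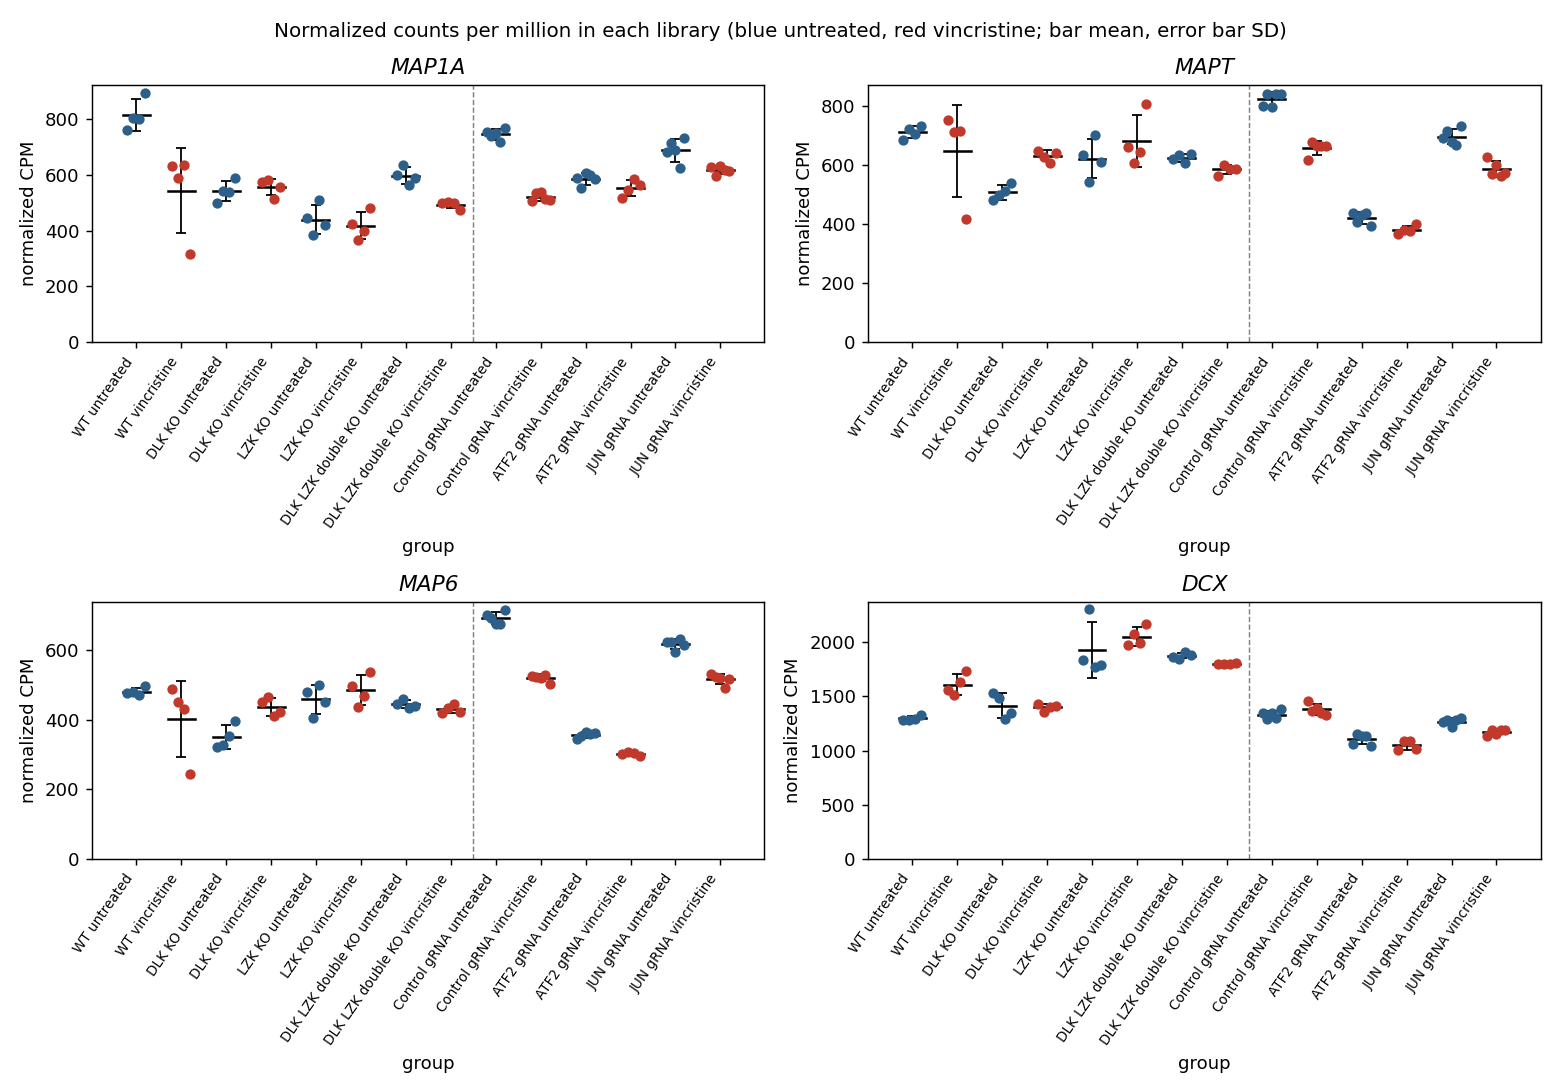
Normalized CPM of MAP1A, MAPT, MAP6 and DCX in each of the 61 libraries by group (blue untreated, red vincristine; black bar mean, error bar SD; the dashed line parts the experiments). In WT vincristine, replicate 4 is the low red point for MAP1A (317), MAPT (416) and MAP6 (244).

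MAP1B (ENSG00000131711.14, chr5:72107234-72209570, + strand), the MAP1 protein of growing axons, rose with vincristine in DLK KO. There 5214, 5405, 4663 and 5082 CPM untreated became 6417, 6468, 5882 and 6345, with the groups apart (log2 fold change 0.30 ± 0.06, adjusted p = 0.00157). In WT untreated libraries held 13224, 13120, 13331 and 13830 CPM and vincristine libraries 15585, 14901, 15771 and 12149, the last being replicate 4. The change was 0.13 ± 0.06 and not called (adjusted p = 0.118). Without replicate 4 it was 0.20 ± 0.05 and called (adjusted p = 0.00167). The effect in DLK KO differed from that in WT by 0.18, and by 0.10 ± 0.07 without that replicate, neither called. LZK KO held 14630 ± 1003 CPM untreated and 16164 ± 1164 with vincristine (log2 fold change 0.14, not called). In double KO the value was -0.09 ± 0.06 with libraries apart, not called, and the effect there differed from that in DLK KO by -0.39 ± 0.09 (adjusted p = 0.0122), a call lost without DLK KO vincristine replicate 2. It differed from that in WT by -0.21 ± 0.09 (adjusted p = 0.0777), and without WT vincristine replicate 4 by -0.29 ± 0.07, which was called (adjusted p = 0.00153). In Control gRNA, 5800, 5162, 6113, 5472 and 5749 CPM were set against 6543, 5936, 6196, 5898 and 5914 with vincristine, and in ATF2 gRNA 3473, 3921, 4035, 3856 and 3511 against 3276, 3644, 3634 and 3426. Neither change was called (0.11 ± 0.05 and -0.11 ± 0.05), though 5 of 17 alternatives called the first. The 2 effects had opposite signs and differed by -0.21 ± 0.07 (adjusted p = 0.0229), a call lost without ATF2 gRNA vincristine replicate 2 or 5. In JUN gRNA the effect differed from that in Control gRNA by -0.17, which was not called, though 6 of 27 alternatives called it. In untreated ATF2 gRNA the level was below that of untreated Control gRNA with no overlap (-0.59 ± 0.05, adjusted p = 8.98e-12).

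In untreated cells 9 of the 10 genes were called in DLK KO against WT, 7 lower and 2 higher, where 34.5% of all genes were called (17.9% lower). In LZK KO 3 of 10 were called (33.9% of all genes) and in double KO 7 (45.7%). In ATF2 gRNA against Control gRNA 9 of 10 were called, 8 of them lower (39.9% of all genes, 20.2% lower), and in JUN gRNA 5, of which 4 were lower (11.2% of all genes, 5.46% lower). Genes as long in exons as these (at least 4376 bases) were called more often than all genes, 42.9% in DLK KO and 53.7% in ATF2 gRNA, with medians of 0.01 and 0.00. Set side by side, the median log2 fold change of the 10 was -0.47 in DLK KO, -0.45 in ATF2 gRNA, 0.00 in LZK KO, 0.09 in double KO and -0.05 in JUN gRNA.

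MAP1B and MAP2 were the furthest below WT in untreated DLK KO. MAP1B fell by 1.39 on the log2 scale (SE 0.06, adjusted p = 9.88e-20), from the 13120 to 13830 CPM of WT to 4663 to 5405. MAP2 (ENSG00000078018.19, chr2:209424058-209734118, + strand), the dendritic MAP, stood at 2355, 2246, 2388 and 2357 CPM in untreated WT and 1319, 1256, 1119 and 1211 in DLK KO. It fell by 0.93 (SE 0.05, adjusted p = 1.21e-18). Both genes sit among genes that were also lower. Of 70 tested genes within 5 Mb of MAP1B the median was -0.91 and 52 were called lower, and of 35 within 5 Mb of MAP2 the median was -0.78 with 23 called lower. Around the other 8 members the medians lay between -0.04 and 0.25. Within 2 Mb the medians were -0.90 over 23 genes for MAP1B and -0.75 over 17 for MAP2. MAP1B itself lay 0.49 below the median of its surroundings and MAP2 0.15 below.

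**Figure D4:**
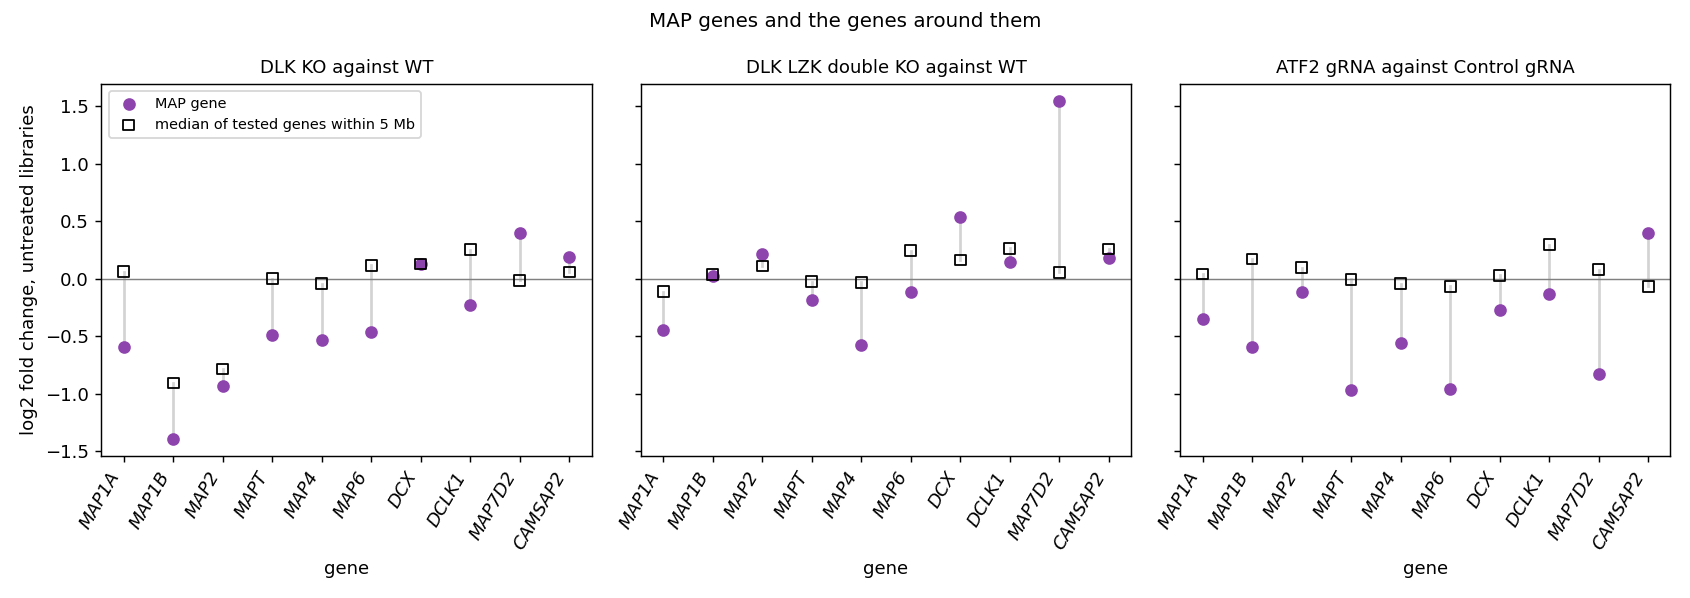
Log2 fold change of each MAP gene (filled circle) and the median of the tested genes within 5 Mb (open square) in untreated DLK KO and double KO against WT and in untreated ATF2 gRNA against Control gRNA. In DLK KO the squares of MAP1B (-0.91) and MAP2 (-0.78) are low with their genes, while MAP7D2 in double KO (1.55) and MAPT and MAP6 in ATF2 gRNA (-0.97 and -0.96) stand far from theirs.

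Each genotype is 1 line, so line and genotype cannot be told apart. Neither the MAP1B nor the MAP2 region was low in double KO. There MAP1B stood at 13263, 13878, 13893 and 13493 CPM, overlapping WT (log2 fold change 0.03 ± 0.06, 95% interval -0.10 to 0.15). MAP2 stood at 2664, 2696, 2763 and 2754 CPM, above every WT library (0.22 ± 0.05, adjusted p = 0.00012). The surroundings within 5 Mb had medians of 0.04 and 0.11 there, and within 2 Mb of -0.15 and 0.11. Set directly against DLK KO, a comparison added after the data were seen, double KO had 7 of the 10 genes called, all higher, where 46.8% of all genes were called (24.8% higher). MAP1B was higher by 1.42 ± 0.06 and MAP2 by 1.15 ± 0.05, with surroundings at 0.95 and 0.84.

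With vincristine MAP2 did not pass the test in experiment 1 (values from -0.07 to 0.06). In JUN gRNA it fell from 2002, 2096, 1864, 2181 and 2027 CPM to 1542, 1831, 1546, 1765 and 1652, with no overlap (-0.29 ± 0.06, adjusted p = 0.00104). In Control gRNA (-0.14 ± 0.06) and ATF2 gRNA (-0.17 ± 0.06) the libraries overlapped and neither was called, and the effect in JUN gRNA did not differ from that in Control gRNA by the test (-0.15 ± 0.09, 95% interval -0.32 to 0.03).

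MAPT (ENSG00000186868.15, chr17:45894382-46028334, + strand) encodes tau, which binds along axonal microtubules. MAP6 (ENSG00000171533.11, chr11:75586918-75669120, - strand) encodes STOP, known for protecting neuronal microtubules from cold and drugs. Across the 14 group means, centred within each experiment, these were the most alike of all pairs among the 10 (root mean square difference 0.07 on the log2 scale), followed by DCX with DCLK1 (0.14). The points share libraries, so this is a description only. MAPT shares 75 exonic bases (0.503% of its own) with MAPT-AS1 on the other strand, and the strand setting of the counting is not stated.

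Both fell with vincristine in all 3 settings of experiment 2. In Control gRNA MAPT went from 798, 840, 795, 838 and 840 CPM to 616, 675, 664, 664 and 664 (log2 fold change -0.32 ± 0.03, adjusted p = 1.21e-10). MAP6 went from 700, 693, 676, 675 and 715 CPM to 526, 523, 521, 529 and 504 (-0.41 ± 0.03, adjusted p = 1.68e-16). Neither gene had overlapping libraries there. In ATF2 gRNA MAPT went from 438, 407, 430, 438 and 393 CPM to 365, 379, 378 and 399, with overlap (-0.15 ± 0.04, adjusted p = 0.00852), a call lost with voom quality weights and without ATF2 gRNA vincristine replicate 2. MAP6 went from 344, 353, 364, 360 and 361 CPM to 303, 307, 306 and 295, with no overlap (-0.24 ± 0.03, adjusted p = 3.13e-07). In JUN gRNA MAPT went from 689, 713, 677, 667 and 731 CPM to 628, 570, 600, 564 and 571, and MAP6 from 624, 624, 593, 633 and 614 to 532, 522, 521, 491 and 517. Both pairs of groups were apart (-0.25 ± 0.03 and -0.26 ± 0.03, both called). The fall was smaller than in Control gRNA by 0.18 ± 0.05 for MAPT in ATF2 gRNA (adjusted p = 0.00901, lost without ATF2 gRNA vincristine replicate 5), by 0.17 ± 0.04 for MAP6 in ATF2 gRNA (adjusted p = 0.00147) and by 0.15 ± 0.04 for MAP6 in JUN gRNA (adjusted p = 0.00494, lost with no filter). For MAPT in JUN gRNA the difference was 0.08 ± 0.05 and not called.

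In experiment 1 neither gene was called in any line. In WT MAPT held 685, 720, 704 and 731 CPM untreated and 752, 709, 713 and 416 with vincristine, so only replicate 4 was low (-0.13 ± 0.11). Without replicate 4 the value was 0.03 ± 0.07. MAP6 in WT held 478, 479, 471 and 497 CPM and 489, 451, 430 and 244, a change of -0.25 ± 0.12 (-0.08 ± 0.07 without replicate 4). In DLK KO the values had the opposite sign. MAPT held 481, 497, 510 and 539 CPM untreated and 646, 627, 606 and 641 with vincristine, and MAP6 321, 326, 355 and 396 against 450, 465, 412 and 421. Neither pair of groups overlapped, and the changes of 0.31 ± 0.11 and 0.32 ± 0.12 missed the threshold (adjusted p = 0.0753 and 0.0965). Both were called in a fit of their own 8 libraries and with voom quality weights, and MAPT also with DESeq2 and with no filter.

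The effect in DLK KO differed from that in WT by 0.58 ± 0.17 for MAP6 (adjusted p = 0.015) and by 0.45 ± 0.15 for MAPT (adjusted p = 0.038). Without WT vincristine replicate 4 the differences were 0.40 ± 0.09 and 0.28 ± 0.09, both called. The call of MAP6 was lost in a fit confined to the compared groups. That of MAPT was lost in 11 of 23 alternatives: that fit, the replicate block, and without replicate 2, 3 or 4 of untreated WT, 1, 2 or 3 of untreated DLK KO, or 1, 2 or 4 of DLK KO with vincristine.

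In untreated cells both were lower with the ATF2 guide. MAPT was at 393 to 438 CPM in ATF2 gRNA against 795 to 840 in Control gRNA (-0.97 ± 0.04, adjusted p = 7.88e-27), and MAP6 at 344 to 364 against 675 to 715 (-0.96 ± 0.03, adjusted p = 4.5e-30). The genes within 5 Mb moved less (medians -0.01 over 237 genes and -0.07 over 99). Within 2 Mb the medians were 0.01 over 87 genes for MAPT and -0.15 over 55 for MAP6. Of the 99 around MAP6, 30 were called lower and 7 higher, where 39.9% of all genes were called (20.2% lower). With the JUN guide the values were -0.24 ± 0.03 and -0.16 ± 0.03, both called with libraries apart. In DLK KO they were -0.49 ± 0.11 and -0.46 ± 0.12 against WT, both called and apart, and in LZK KO and double KO (-0.20 to -0.07) neither was called. Against DLK KO, double KO was higher by 0.30 ± 0.11 for MAPT (lost without DLK KO untreated replicate 1 or double KO untreated replicate 4) and by 0.35 ± 0.12 for MAP6 (lost without DLK KO untreated replicate 1).

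MAP4 (ENSG00000047849.21, chr3:47850690-48089272, - strand), a MAP of most cell types, was not called with vincristine in any of the 7 kinds of cell, with values from -0.09 (ATF2 gRNA) to 0.05 (DLK KO). Its untreated level did differ. WT held 312, 304, 294 and 281 CPM, DLK KO 203, 199, 213 and 212, and double KO 206, 203, 199 and 190. Both knockouts of DLK lay below every WT library (-0.53 ± 0.07, adjusted p = 3.5e-08, and -0.58 ± 0.07, adjusted p = 2.52e-09). LZK KO overlapped WT (247, 320, 234 and 253 CPM, -0.18 ± 0.07, adjusted p = 0.0338), and 6 of 15 alternatives lost that call: no filter, a fit confined to the compared groups, and without replicate 1 of untreated WT or 1, 3 or 4 of untreated LZK KO. Control gRNA held 503, 504, 477, 487 and 506 CPM and ATF2 gRNA 323, 332, 340, 341 and 339. The groups were apart, with a log2 fold change of -0.56 ± 0.03 (adjusted p = 7.2e-21). The JUN guide gave -0.10 ± 0.03 (adjusted p = 0.0201), lost with no filter and without replicate 1, 2 or 5 of untreated Control gRNA or 2 or 5 of untreated JUN gRNA.

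**Figure D5:**
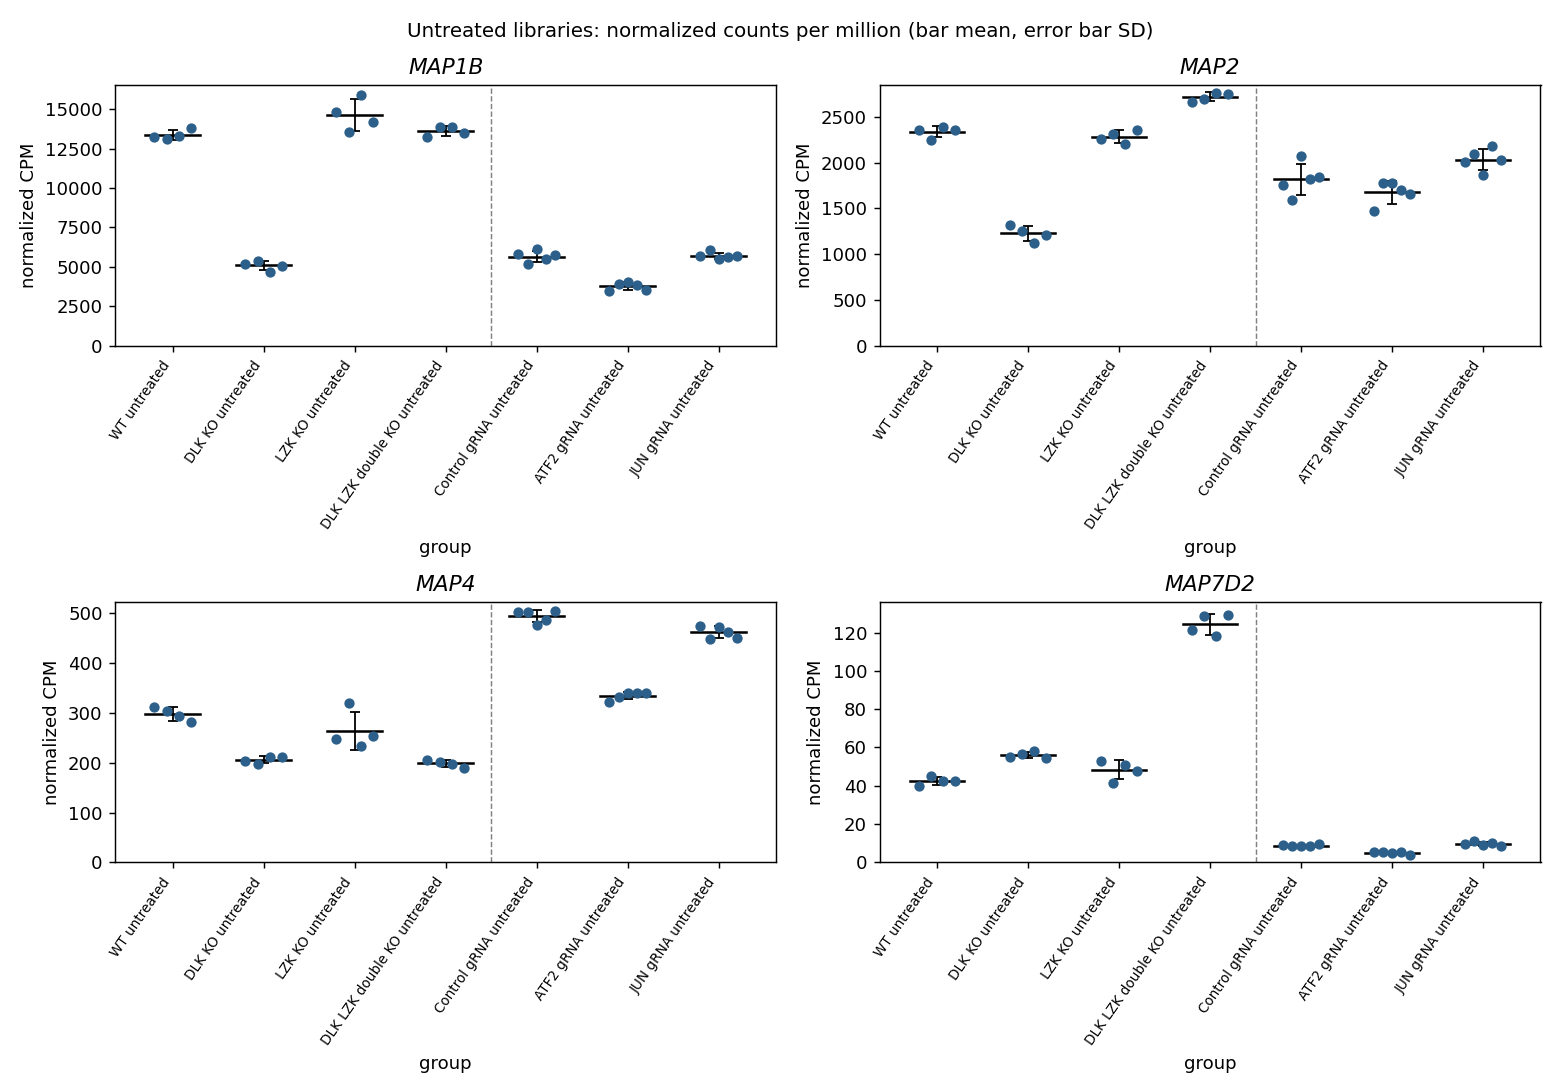
Normalized CPM of MAP1B, MAP2, MAP4 and MAP7D2 in the untreated libraries (bar mean, error bar SD; the dashed line parts the experiments). MAP1B and MAP2 are low in DLK KO alone among the lines of experiment 1, MAP4 is low in DLK KO and double KO, and MAP7D2 is high in double KO (118 to 129 CPM).

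DCX (ENSG00000077279.18, chrX:111293779-111412429, - strand) encodes doublecortin, a lattice binder of young, migrating neurons, and DCLK1 (ENSG00000133083.14, chr13:35768652-36131306, - strand) a kinase with doublecortin domains. Both rose with vincristine in WT. DCX went from 1278, 1283, 1293 and 1328 CPM to 1557, 1512, 1629 and 1731 (0.31 ± 0.06, adjusted p = 0.000144). DCLK1 went from 529, 533, 523 and 542 CPM to 613, 586, 638 and 581 (0.19 ± 0.05, adjusted p = 0.00271), a call lost with no filter and in a fit confined to the compared groups. Neither pair of groups overlapped, and without WT vincristine replicate 4 the values were 0.27 ± 0.06 and 0.20 ± 0.05, both called.

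In the knockouts neither was called with vincristine. DCX held 1530, 1488, 1289 and 1342 CPM in untreated DLK KO and 1427, 1351, 1401 and 1406 with vincristine, with overlap. It held 1864, 1847, 1907 and 1875 in double KO against 1794, 1796, 1801 and 1807, apart but small (-0.06 ± 0.06). The effect differed from that in WT by -0.33 ± 0.09 in DLK KO (adjusted p = 0.00687) and -0.37 ± 0.09 in double KO (adjusted p = 0.00211). For DCLK1 the difference of double KO from WT was -0.26 ± 0.07 (adjusted p = 0.00551, lost with no filter). In LZK KO the DCX difference was -0.22 ± 0.09 and not called. DCLK1 did not rise in experiment 2. Its untreated and vincristine means were 529 ± 6.37 and 512 ± 12.6 CPM in Control gRNA and 482 ± 22.9 and 449 ± 27.6 in ATF2 gRNA. They were 517 ± 11.7 and 496 ± 18.5 CPM in JUN gRNA, and no change was called. In Control gRNA DCX was at 1347, 1288, 1341, 1301 and 1379 CPM untreated and 1455, 1367, 1392, 1348 and 1330 with vincristine, overlapping (0.05 ± 0.03, not called). In JUN gRNA it fell slightly, from 1259, 1279, 1214, 1285 and 1295 CPM to 1130, 1189, 1148, 1192 and 1186, with no overlap (-0.12 ± 0.03, adjusted p = 0.00545). The effect differed from Control gRNA by -0.17 ± 0.04 in JUN gRNA (adjusted p = 0.00519). In ATF2 gRNA the difference was -0.12 ± 0.04 (adjusted p = 0.0482) and 14 of 26 alternatives lost it, DESeq2, RLE factors, the replicate block, the fit confined to the compared groups, and leaving out replicate 2, 3 or 4 of untreated ATF2 gRNA, 2 or 5 of ATF2 gRNA with vincristine, 2 or 4 of untreated Control gRNA, or 1, 2 or 3 of Control gRNA with vincristine.

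Untreated DCX was higher in LZK KO (1836, 2305, 1773 and 1784 CPM) and in double KO than in every WT library (0.57 ± 0.06, adjusted p = 1.65e-09, and 0.53 ± 0.06, adjusted p = 3.85e-09). In DLK KO it overlapped WT (0.12 ± 0.06, not called). With the ATF2 guide it was lower (-0.27 ± 0.03, adjusted p = 4.72e-10, libraries apart). DCLK1 moved less: -0.23 ± 0.05 in DLK KO, 0.14 ± 0.05 in double KO (lost with no filter and without untreated WT replicate 2 or double KO replicate 4) and -0.13 ± 0.03 in ATF2 gRNA.

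The 2 RefSeq windows of DCLK1 with an AP-1 match are printed because they were the only windows among the 17 with the AP-1 letters, which are in capitals. The second is shortened to the part outside GENCODE 29 exons.
DCLK1 chr13:36131940-36132189 (- strand): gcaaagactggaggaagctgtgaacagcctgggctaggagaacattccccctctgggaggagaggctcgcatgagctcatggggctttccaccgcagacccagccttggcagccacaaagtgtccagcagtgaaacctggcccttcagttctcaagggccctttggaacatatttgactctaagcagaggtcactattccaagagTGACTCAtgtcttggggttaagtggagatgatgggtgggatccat
DCLK1 chr13:35855862-35855917 (- strand): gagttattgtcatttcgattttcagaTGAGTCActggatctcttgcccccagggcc

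MAP7D2 (ENSG00000184368.15, chrX:20006713-20116917, - strand) belongs to the MAP7 family, which recruits kinesin-1. It was the member furthest above WT in untreated double KO: 121, 129, 118 and 129 CPM, against 40.1, 45.3, 42.3 and 42.5 in WT, 54.9, 56.4, 58.2 and 54.5 in DLK KO and 52.8, 41.6, 51.1 and 47.9 in LZK KO. Double KO lay above every other untreated library. The log2 fold change against WT was 1.55 ± 0.07 in double KO (adjusted p = 2.12e-19), 0.40 ± 0.07 in DLK KO (adjusted p = 5.34e-05) and 0.19 ± 0.08 in LZK KO (adjusted p = 0.0554). The 52 genes within 5 Mb of it had a median of 0.05 in double KO. The 16 within 2 Mb had a median of 0.22, with 8 called higher and 2 lower, where 45.7% of all genes were called. Vincristine gave values from -0.07 to 0.19 in experiment 1, none called.

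In experiment 2 MAP7D2 was rarer. Control gRNA held 8.97, 8.39, 8.76, 8.55 and 9.39 CPM untreated and 10.4, 8.82, 8.87, 8.53 and 9.78 with vincristine, with overlap (0.07 ± 0.12). ATF2 gRNA held 5.35, 5.28, 5.12, 5.41 and 3.70 CPM untreated, all below Control gRNA (-0.82 ± 0.12, adjusted p = 3.35e-07), and 3.98, 2.58, 2.98 and 4.08 with vincristine. The further fall of -0.55 ± 0.14 was called (adjusted p = 0.00909) although the groups overlapped through untreated replicate 5, and was lost with voom quality weights, in a fit confined to the compared groups and without vincristine replicate 3 or 4. In JUN gRNA it went from 9.69, 11.0, 9.36, 10.3 and 8.48 CPM to 8.30, 8.71, 7.08, 6.50 and 6.09, with overlap (-0.41 ± 0.12, adjusted p = 0.0127). The effect differed from that in Control gRNA by -0.62 ± 0.18 in ATF2 gRNA (adjusted p = 0.0109) and by -0.49 ± 0.17 in JUN gRNA (adjusted p = 0.045), the latter lost in 13 of 27 alternatives: without replicate 1, 2, 3 or 4 of untreated Control gRNA, 1, 3 or 5 of Control gRNA with vincristine, 1, 2 or 4 of untreated JUN gRNA, or 3, 4 or 5 of JUN gRNA with vincristine.

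CAMSAP2 (ENSG00000118200.14, chr1:200739558-200860704, + strand), which binds and stabilises microtubule minus ends, was not called with vincristine in any of the 7 kinds of cell. Its values ran from -0.06 to 0.01 in experiment 1, and reached 0.20 ± 0.08 in Control gRNA (adjusted p = 0.0599). There it held 234, 204, 284, 240 and 239 CPM untreated and 299, 263, 275, 273 and 267 with vincristine, with overlap through untreated replicate 3, and 6 of 17 alternatives called it. It was the only member called higher with the ATF2 guide in untreated cells: 268, 347, 338, 323 and 307 CPM (0.40 ± 0.08, adjusted p = 0.000229). With the JUN guide it held 280, 302, 269, 326 and 302 CPM (0.30 ± 0.08, adjusted p = 0.0149), lost without untreated Control gRNA replicate 2 or JUN gRNA replicate 4. Both overlapped Control gRNA. It was also higher in DLK KO (0.19 ± 0.05) and double KO (0.18 ± 0.05) than in WT, with libraries apart.

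The 2 guides were also set against each other in untreated cells, a comparison added after the data were seen. In ATF2 gRNA 9 of the 10 genes were called lower than in JUN gRNA, where 34.8% of all genes were called (18.2% lower), with DCLK1 (-0.10 ± 0.03) lost under 4 of 17 alternatives. MAP7D2 (-0.97 ± 0.12), MAP6 (-0.79 ± 0.03), MAPT (-0.72 ± 0.03), MAP1B (-0.60 ± 0.05) and MAP4 (-0.46 ± 0.03) differed most, each with libraries apart. CAMSAP2 did not pass (0.10 ± 0.08, 95% interval -0.07 to 0.26).

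Related genes were counted in 5 further lists, to be read against the 30.2% of all genes called in WT and the 35.3% called in Control gRNA (18.1% lower). Of 15 other MAPs, 4 were called higher and 0 lower with vincristine in WT (median 0.03; 5 and 0, median 0.18, without replicate 4), and 6 higher and 4 lower in Control gRNA (0.19). Of those called, the furthest from 0 were MAP1LC3B, a light chain of MAP1 proteins also used in autophagy (0.48 ± 0.08 in WT, from 196 ± 16.9 to 273 ± 34.9 CPM), TPPP3 (0.37 ± 0.13 in WT, not called without replicate 4), and in Control gRNA MAP7D3 (1.39 ± 0.28) and MAP1LC3A (0.75 ± 0.15), which stood at 0.890 ± 0.172 and 3.21 ± 0.500 CPM untreated. Of 13 proteins that track plus ends or bind the lattice, 3 were higher and 3 lower in WT, and 3 and 5 in Control gRNA. NAV1, a neuron navigator, fell in both (-0.35 ± 0.10, or -0.20 ± 0.07 without WT vincristine replicate 4, and -0.49 ± 0.04), and CLASP2, which stabilises plus ends, rose in both (0.34 ± 0.07 and 0.35 ± 0.07).

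Of 12 kinases that phosphorylate MAPs, 1 was higher and 2 lower in WT (30.2% of all genes called), and 2 and 7 in Control gRNA (35.3% called, 18.1% lower). CDK5, a tau kinase, fell in both (-0.27 ± 0.08 and -0.41 ± 0.06). SIK2 rose in WT (0.24 ± 0.08) and MARK2 fell in Control gRNA (-0.27 ± 0.05). Of 8 severing proteins, 1 was higher and 2 lower in WT, and 2 and 2 in Control gRNA. The fidgetin gene FIGN fell (-0.57 ± 0.08 and -0.51 ± 0.09) and its relative FIGNL1 rose (0.29 ± 0.11 and 0.51 ± 0.09), in WT not without replicate 4 (0.16 ± 0.11, adjusted p = 0.256). Of the 5 CRMP genes, whose proteins carry tubulin to growing axons, 1 was lower in WT and all 5 were lower in Control gRNA (median -0.35, where the median of all genes was 0.03). DPYSL2 fell by 0.26 (SE 0.05) in WT and by 0.59 (SE 0.03) in Control gRNA, and DPYSL5 by 0.44 (SE 0.04) in Control gRNA. The effect on all 5 CRMP genes differed from Control gRNA in ATF2 gRNA (all 5 called, median 0.18, where 20.6% of all genes were called), and for 3 of 5 in JUN gRNA (15.8% of all genes). Within ATF2 gRNA, vincristine (6.10% of all genes called, 4.22% lower) gave 4 lower calls among the CRMP genes, 1 among the other MAPs and 1 among the plus-end and lattice proteins.

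With the ATF2 guide in untreated cells, where 39.9% of all genes were called (20.2% lower), 4 of the 5 lists held more lower than higher calls: 9 lower and 4 higher of the 15 other MAPs (median -0.28), 11 and 0 of the 13 plus-end and lattice proteins (-0.26), 9 and 0 of the 12 kinases (-0.27), and 4 and 1 of the 5 CRMP genes (-0.62). The severing proteins had 3 lower and 4 higher (-0.01). The median of all genes was 0.02. In untreated DLK KO against WT, where 34.5% of all genes were called (17.9% lower, median 0.01), 6 of the other MAPs were lower and 2 higher, 6 and 1 of the plus-end and lattice proteins, 4 and 2 of the kinases, 2 and 3 of the severing proteins, and 4 and 0 of the CRMP genes.

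Among 12323 genes tested in both experiments, those nearest to a member over the 14 group means were NANS, CHRNB2 and RTN4RL2 for MAP1A (root mean square differences of 0.10, 0.11 and 0.11 on the log2 scale, against a median of 0.32 over all those genes). For DCX they were TMEM44, PPP2R3A and SMYD2 (each 0.09, median 0.28), and for MAP6 they were CAPN1 (0.07), SEPT3 (0.09) and CUEDC1 (0.09, median 0.36). The 3 members were taken as those with the largest vincristine values in WT. MAP6 is among them only with WT vincristine replicate 4: without it MAP6 was at -0.08 and MAP1B and DCLK1 at 0.20 each.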

How the data were processed

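The authors' deposited tables hold raw counts of reads per gene for each library, 1 table per experiment. Per the labels, RNA was poly(A) selected and sequenced from a stranded kit, and per the submitters' processing notes cutadapt 3.4, STAR, featureCounts (Subread 2.0.1) and GRCh38 were used. The strand setting and the use of duplicate reads are not given in the sources used here. Genes took symbols from GENCODE release 29 (58320 of 58440 identifiers), and each library's name gave its group. Counts were tested with edgeR 4.0.16 in R 4.3.3 (quasi-likelihood, robust, TMM factors, low counts filtered by group), with all groups of an experiment in 1 fit and Benjamini-Hochberg adjustment over all genes tested, called under 0.05. Differences between vincristine effects were interaction contrasts. Alternatives were a replicate block, DESeq2 1.42.0, RLE factors, voom with sample quality weights (limma 3.58.1), no filter, a mean of at least 1 CPM as the filter, a fit confined to the compared groups, and each library left out in turn. The test was tried on simulated counts first, with 200 genes changed 2-fold in WT vincristine or Control gRNA vincristine. The vincristine test recovered 75.5% of them in WT and 64.5% in Control gRNA. For the difference of DLK KO from WT it was 63.5%, and for ATF2 gRNA from Control gRNA 56.5%. False calls were 4 to 6 in these. A gene that is not called may thus still have changed. No 2 replicates agreed within sampling noise.

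The 10 genes and the lists were chosen with earlier results of these data known. Named were all 10 members, the 2 called genes of each list with the largest change in WT and in Control gRNA, and the 3 genes nearest in pattern to 3 members.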

Additional observations from a re-analysis of the deposited data

Results flagged for a closer look

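Of 140 sets of replicate values tested (each gene in each group), 9 held a library far from the rest of its group, where chance gives about 1 in 20. WT vincristine replicate 4 was the lowest for MAP1A (317 CPM, the others 590 to 635), MAPT (416, the others 709 to 752) and CAMSAP2 (405, the others 443 to 448). The other lowest values were MAP1A in DLK LZK double KO vincristine replicate 4 (474, the others 498 to 501), MAPT in Control gRNA vincristine replicate 1 (616, the others 664 to 675), MAP7D2 in ATF2 gRNA untreated replicate 5 (3.70, the others 5.12 to 5.41) and CAMSAP2 in DLK KO vincristine replicate 2 (462, the others 478 to 481). The highest were DCX in LZK KO untreated replicate 2 (2305, the others 1773 to 1836) and CAMSAP2 in ATF2 gRNA vincristine replicate 3 (321, the others 302 to 304).

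The vincristine effect differed between kinds of cell, by the interaction test, in 17 cases. Against WT, the difference on the log2 scale in DLK KO was 0.62 for MAP1A, 0.58 for MAP6, 0.45 for MAPT and -0.33 for DCX, and in double KO -0.37 for DCX and -0.26 for DCLK1. Double KO differed from DLK KO by -0.39 for MAP1B. Against Control gRNA, the difference in ATF2 gRNA was 0.43 for MAP1A, 0.18 for MAPT, 0.17 for MAP6, -0.21 for MAP1B, -0.12 for DCX and -0.62 for MAP7D2, and in JUN gRNA 0.36 for MAP1A, 0.15 for MAP6, -0.17 for DCX and -0.49 for MAP7D2.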

How the results depend on the processing

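Of 82 called results for the 10 genes, 61 kept their call in every alternative run and 0 changed sign. Of 48 results of at least 0.1 that were not called, 29 were called in some alternative. MAPT with vincristine in WT, not called, changed sign with voom weights (0.0024) and without WT vincristine replicate 4, and ran from -0.21 to 0.028 over the left-out libraries. RLE factors shifted fold changes by at most 0.02.

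Counts of the 10 genes that moved by over 1.5 times were as follows. In the fit confined to the compared groups they were 3 in DLK KO, 2 in double KO, 6 in Control gRNA, 1 for DLK KO against WT and 4 for double KO against DLK KO. With voom weights they were 3 in DLK KO, 1 in double KO, 5 in Control gRNA, 1 in ATF2 gRNA, 3 for LZK KO against WT, 4 for double KO against DLK KO and 7 for untreated LZK KO. With DESeq2 they were 2 in DLK KO, 6 in Control gRNA and 1 for LZK KO against WT. With no filter they were 2 in DLK KO, 1 for double KO against WT, 2 for double KO against DLK KO and 3 for untreated JUN gRNA. RLE factors and the filter at 1 CPM each gave 5 in Control gRNA. Leaving out a library gave 0 to 1 in LZK KO, 3 to 5 in Control gRNA, 0 to 1 for LZK KO against WT, 0 to 1 for double KO against DLK KO, 3 to 7 for ATF2 gRNA against Control gRNA and 3 to 6 for untreated JUN gRNA. The cause was not tested.

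Counts over all genes moved in the fit confined to the compared groups to 3529 in WT, 1028 in double KO, 3207 in DLK KO, 271 in LZK KO, 768 in ATF2 gRNA, 1082 for LZK KO against WT and 3208 for double KO against DLK KO. With voom weights they were 3583 in DLK KO, 67 in double KO, 3533 for LZK KO against WT, 5867 for double KO against WT and 2757 for double KO against DLK KO, which was 429 with DESeq2 and 536 with no filter. Leaving out a library gave 598 to 981 in DLK KO, 452 to 783 in LZK KO and 114 to 218 for double KO against DLK KO.

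Same-numbered replicates did not deviate together (mean correlation -0.006 over 112 pairs in experiment 1 and 0.0008 over 70 in experiment 2), and 4 of 32 and 6 of 29 libraries correlated best with their own number. The replicate block gave 3 of the 10 genes for DLK KO against WT (4 without it) and 5 for ATF2 gRNA against Control gRNA (6 without it). MAP7D2 in experiment 2 rests on the fewest reads, at under 12 CPM per library.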
